A study of Homo sapiens with 6 samples.

Results

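The NRF2 antioxidant genes considered here are 9 genes: the regulator genes NFE2L2 and KEAP1, and the effector genes GCLC, GCLM, GSR, NQO1, HMOX1, TXNRD1 and SRXN1. They were chosen by gene symbol from the annotation of the array's probe sets, which are groups of probes for a single transcript. A total of 20 of 54613 tested probe sets carry a member's symbol, and 19 of them name a single gene. The remaining probe set also names CSNK2A1 and was given to neither gene. Each gene is read mainly at its probe set with the highest mean signal over all arrays, which makes 9 of 19775 genes.

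RNA came from MCF10A, an established, non-tumorigenic mammary epithelial cell line. Cells of the mimic group received miR-221/222 and cells of the control group a control microRNA, with 3 biological replicates in each group. No other treatment or genetic change is named in the labels. The labels also give no dose, no time after transfection and no control sequence.

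NRF2, the protein of NFE2L2, is a transcription factor that switches on genes against oxidants and reactive chemicals. KEAP1 holds it in the cytoplasm and hands it to the ubiquitin ligase of CUL3 and RBX1 for destruction. Oxidants modify KEAP1, and NRF2 then accumulates, pairs with a small MAF protein and binds antioxidant response elements near its target genes. Much of this control acts on the NRF2 protein, which an RNA array does not measure.

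The 3p arms of miR-221 and miR-222 are shown with their seed, bases 2 to 8, in capitals, because the seed does most of the pairing with messenger RNA. Both sequences are from RefSeq (GRCh38.p14), and both have the seed GCUACAU. The labels do not say which arm the mimics carried.
hsa-miR-221-3p: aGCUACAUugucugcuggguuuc
hsa-miR-222-3p: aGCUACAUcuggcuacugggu

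The antioxidant response element was searched as TGACNNNGC on both strands, from 250 bases before to 50 bases after the RefSeq gene start (GRCh38.p14). Promoters were given for 7 of the 9 members, with 10 starts between them. The letters were present at 4 of these 10 starts, in KEAP1, GCLM and TXNRD1, against 13.3% of all 35116 promoters of the same length. They were also present at 13 of 38 starts (34.2%) of the other NRF2 targets listed below. A match describes letters only, and draws on no binding data. The members' 6 matches are shown with 10 bases on each side, read along the strand of the match, with the element in capitals.
GCLM, chr1:93909446-93909474, plus strand: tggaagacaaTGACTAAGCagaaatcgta
KEAP1, chr19:10502784-10502812, plus strand: caggtcaccaTGACTAAGCagagccgggc
KEAP1, chr19:10502807-10502835, minus strand: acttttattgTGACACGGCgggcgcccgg
TXNRD1, chr12:104215670-104215698, plus strand: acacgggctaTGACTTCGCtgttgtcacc
TXNRD1, chr12:104215761-104215789, minus strand: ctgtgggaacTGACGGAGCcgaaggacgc
TXNRD1, chr12:104286920-104286948, minus strand: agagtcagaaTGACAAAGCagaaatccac
GCLM and KEAP1 share the same 9 letters. An AP-1 site, searched as TGANTCA, was present at 0 of the members' 10 starts, against 7.71% of all promoters. The matches therefore could not overlap one. The other promoters given, of NFE2L2, GCLC, NQO1 and SRXN1, have no match in this window.

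The deposited values are log2 intensities after RMA, a method that corrects background, equalises the arrays and merges the probes of a set. Array medians lay between 7.59 and 7.66, and within each group every pair of arrays correlated across probe sets with r of at least 0.995. The mammary epithelial markers were all lower in the mimic arrays: 8 of 8 measured passed the test, and 4 were at least 2-fold lower. Their summed level, on the log2 scale, ran from 14.27 to 14.39 on mimic arrays and from 15.51 to 15.57 on control arrays. All 8 had a mean above the median signal of the array, whereas 3 of 8 fibroblast, 1 of 5 endothelial and 2 of 4 measured blood cell markers had means below it. The summed fibroblast markers ran from 13.91 to 13.98 on mimic arrays and from 12.82 to 12.91 on control arrays, with 1 rise (DCN) and 2 falls among 8. Endothelial markers ran from 10.65 to 10.74 against 10.88 to 11.03, with 1 of 5 lower, and blood cell markers from 10.22 to 10.31 against 10.72 to 10.75, with 1 of 4 higher and 1 lower. The 3′ minus 5′ signal of GAPDH, a sign of RNA integrity, was 0.024 to 0.042 on mimic arrays and -0.046 to 0.023 on control arrays, and that of ACTB overlapped. These differences move with the groups, and their part in the results below was not tested. In bulk RNA, fewer cells with a transcript and less transcript per cell cannot be told apart.

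The comparison of mimic with control asked whether the transcripts of the NRF2 pathway differ between them. The messages of NFE2L2 and KEAP1 did not pass the test, while 5 of their 7 effector genes rose and 1 fell. Among the rises, that of NQO1 passed on 1 of its 3 probe sets and was lost with all of them averaged. TXNRD1 rose most, 2.07-fold, and was the single member to change at least 2-fold, where 3.05% of all genes did. The other 4 rises were between 1.20-fold and 1.39-fold. GCLC fell 1.61-fold while its partner subunit GCLM rose. By limma with Benjamini-Hochberg adjustment over all probe sets at 0.05, 6 of the 9 genes passed, where 30.4% of all genes did. Of all genes 14.1% were higher and 16.3% lower, a balance that turned under some alternatives. The 3 mimic arrays lay entirely on one side of the control arrays for 7 of the 9, against 45.6% of all genes. The members' median difference was 0.26, and that of all genes 0.03, both log2. The members are bright on these arrays, with 7 of 9 above the 90th percentile of mean signal and 0 below the median. Without the 40% dimmest probe sets, 7 of the 9 passed, where 6140 of 14942 genes did.

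**Figure D1:**
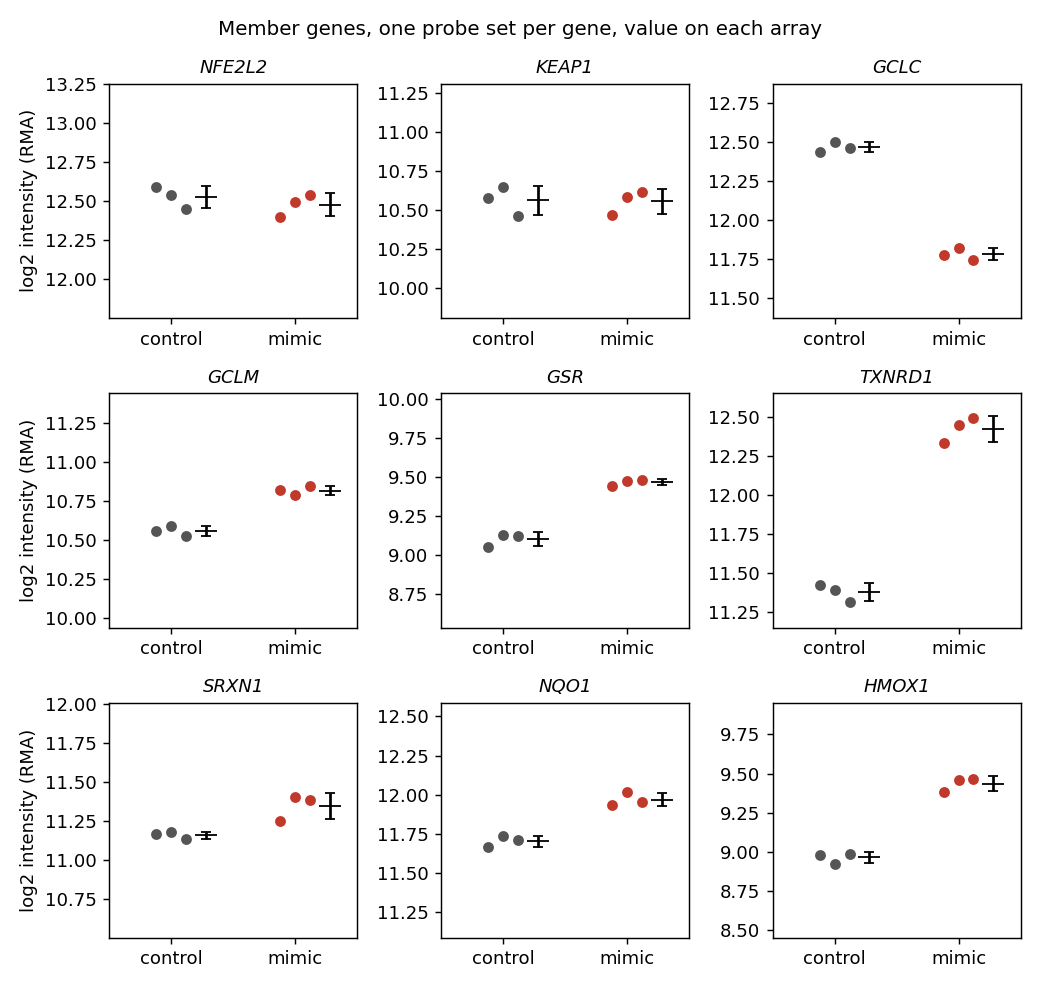
Log2 intensity (RMA) of each of the 9 genes on each array at its probe set with the highest mean: 3 control arrays (grey) and 3 mimic arrays (red), with the mean and SD in black. Every panel spans the same log2 range. The groups overlap for NFE2L2 and KEAP1, the mimic arrays are lower for GCLC, and they are higher for the other 6 genes.

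NFE2L2 had log2 intensities of 12.40, 12.50 and 12.54 on mimic arrays and 12.59, 12.54 and 12.45 on control arrays. The groups overlapped, and mimic minus control was -0.05 ± 0.07 (SE), with a 95% interval from -0.20 to 0.10. The second NFE2L2 probe set gave 8.67, 8.69 and 8.71 against 8.91, 9.04 and 8.64. Control replicate 3 was the lowest of all 6 arrays there, and the difference of -0.17 did not pass (limma adjusted p = 0.211). Without control replicate 3 it was -0.28 and passed (limma adjusted p = 0.0178). The last, below the median signal of the array, had a difference of 0.14 with an interval from -0.01 to 0.30. The 3 probe sets of NFE2L2 thus do not share a sign.

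KEAP1, the substrate adaptor that marks NRF2 for destruction, had 10.47, 10.58 and 10.62 on mimic arrays and 10.58, 10.65 and 10.46 on control arrays. Its groups overlapped almost fully, and its single probe set had a difference of -0.01 ± 0.07 (SE), with a 95% interval from -0.17 to 0.15.

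GCLC and GCLM are the catalytic and the modifier subunit of glutamate-cysteine ligase, the rate-limiting enzyme of glutathione synthesis. GCLC had 11.78, 11.82 and 11.75 on mimic arrays and 12.43, 12.50 and 12.46 on control arrays. The groups were far apart relative to their spread, with a log2 difference of -0.68 ± 0.06 (SE; limma adjusted p = 7.99e-06), 1.61-fold higher in the control. The second GCLC probe set had 10.71, 10.83 and 10.87 against 11.44, 11.41 and 11.40, which is 1.53-fold higher in the control (limma adjusted p = 3.4e-05). The dimmest had a difference of -0.24 (limma adjusted p = 0.0278). That last call was lost when mimic replicate 1, mimic replicate 3, control replicate 2 or control replicate 3 was left out, with differences from -0.25 to -0.19 and adjusted p-values (limma) from 0.0598 to 0.0944. All 3 GCLC probe sets thus fell, the 2 brightest by similar amounts.

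GCLM had 10.82, 10.79 and 10.84 on mimic arrays and 10.56, 10.59 and 10.53 on control arrays. Every mimic array lay above every control array, and the difference was 0.26 ± 0.06 (SE; limma adjusted p = 0.00742), or 1.20-fold. A further probe set rose by 0.20 (limma adjusted p = 0.0385). Without any 1 array other than mimic replicate 1 it no longer passed, with differences from 0.16 to 0.22 and adjusted p-values (limma) from 0.0651 to 0.122. The remaining one had 0.16 with an interval from -0.02 to 0.34, and mimic replicate 1 lay below the other mimic arrays there. Without mimic replicate 1 its difference was 0.25 (limma adjusted p = 0.0198).

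The change of GCLM minus the change of GCLC, taken within arrays at the brightest probe set of each, was 0.94 ± 0.04 on the log2 scale (SE, n = 3 per group). The groups did not overlap, which follows from GCLM lying higher and GCLC lower on every mimic array. The exact two-sided permutation test therefore had to give p = 0.10, the smallest that 3 arrays against 3 allow. It adds nothing to the separate results of the 2 genes. With all probe sets of each gene averaged, the difference between the subunits was 0.72.

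GSR, glutathione reductase, returns oxidised glutathione to its reduced form with NADPH. It had 9.44, 9.47 and 9.48 on mimic arrays and 9.05, 9.13 and 9.12 on control arrays. The difference of 0.37 ± 0.06 (SE; limma adjusted p = 0.000818) is 1.29-fold. The other GSR probe set, with 9.36, 9.34 and 9.38 against 9.08, 9.05 and 9.16, rose 1.20-fold. Both GSR probe sets thus separated the groups without overlap.

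TXNRD1, the cytosolic thioredoxin reductase, is a selenoprotein that keeps thioredoxin reduced. It had 12.33, 12.45 and 12.49 on mimic arrays and 11.42, 11.39 and 11.31 on control arrays. Its difference of 1.05 ± 0.07 (SE; limma adjusted p = 7.4e-07) has a 95% interval from 0.90 to 1.20, above the intervals of all the other members. The other TXNRD1 probe set had means of 4.16 on mimic arrays and 4.18 on control arrays, close to the lowest array values of 3.67 to 3.72. It had a difference of -0.03 (interval -0.18 to 0.12), and whether it measured a transcript is not known.

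SRXN1, sulfiredoxin, repairs over-oxidised peroxiredoxins. It had 11.25, 11.40 and 11.39 on mimic arrays and 11.17, 11.18 and 11.14 on control arrays. The groups did not overlap, but mimic replicate 1 was close to the control arrays. The difference of 0.19 ± 0.06 (SE) did not pass over all probe sets (limma adjusted p = 0.0568), with a 95% interval from 0.05 to 0.33. Without mimic replicate 1 it was 0.24 and passed (limma adjusted p = 0.0165).

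NQO1, a quinone reductase often used as a readout of NRF2, had 11.93, 12.02 and 11.95 on mimic arrays and 11.66, 11.73 and 11.71 on control arrays. At this probe set the mimic arrays were higher, by 0.27 ± 0.06 (SE; limma adjusted p = 0.00704). A second probe set had 11.33, 11.48 and 11.38 against 11.56, 11.47 and 11.45, an overlapping difference of -0.10 with an interval from -0.24 to 0.05. Another had 0.19 (limma adjusted p = 0.0733), and 0.25 without mimic replicate 1 (limma adjusted p = 0.0275). The probe sets of NQO1 thus disagree, and with all of them averaged the gene had 0.12 and did not pass (limma adjusted p = 0.121).

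HMOX1, haem oxygenase 1, splits haem into biliverdin, iron and carbon monoxide, and the repressor BACH1 competes with NRF2 at its gene. It had 9.38, 9.46 and 9.47 on mimic arrays and 8.98, 8.92 and 8.99 on control arrays. The groups were well apart, with a difference of 0.47 ± 0.06 (SE; limma adjusted p = 0.000143), or 1.39-fold, on its only probe set.

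**Figure D2:**
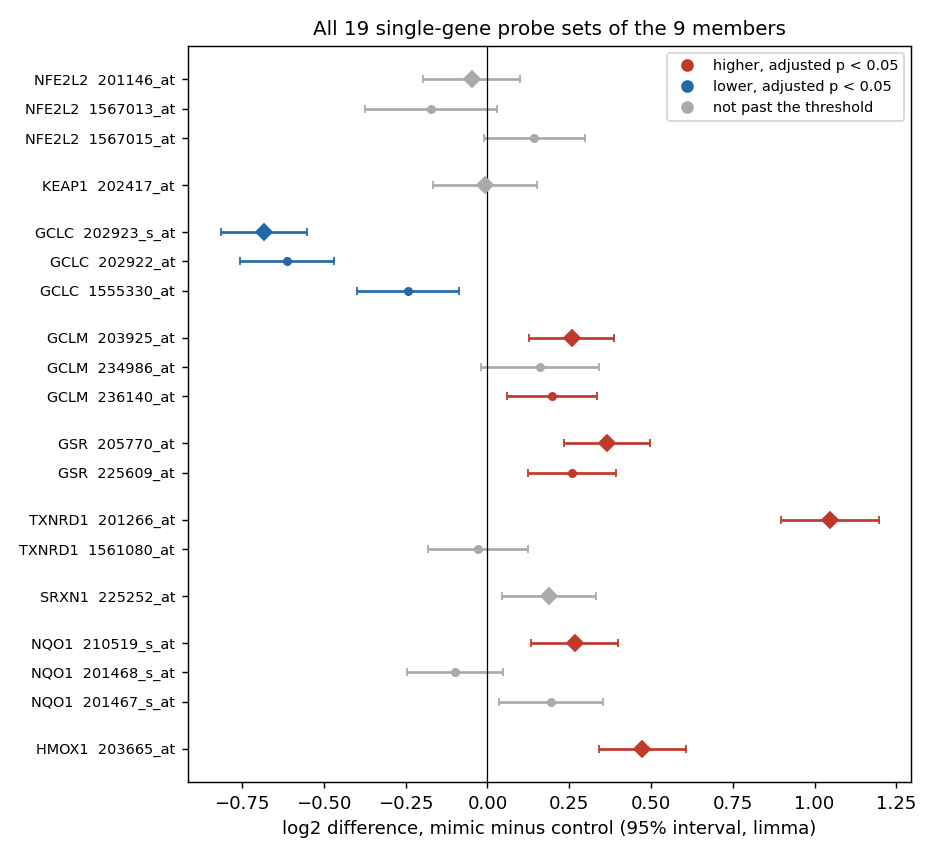
Log2 difference, mimic minus control, with limma's 95% interval for each of the 19 single-gene probe sets. Diamonds mark the probe set used for the gene, and red, blue and grey mark higher, lower and not past the adjusted threshold. The points of GCLC lie left of 0, those of GCLM and GSR right of 0, and those of NQO1 and NFE2L2 on both sides.

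Counted by probe set, 7 of the 19 rose, 3 fell and 9 did not pass, where 24.8% of all probe sets changed (11.6% higher, 13.1% lower). The 3 falls are all of GCLC. Their median difference was 0.16 on the log2 scale, against 0.03 over all probe sets, and 12 of the 19 separated the groups, against 39.2% of all. The probe sets of a gene share its transcript and are not independent.

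The genes whose profile over the 6 arrays came closest to that of TXNRD1, each gene centred on its own mean, were SLC25A30, IRS1 and HSD17B11. Their root mean square distances were 0.018, 0.018 and 0.027 on the log2 scale. Those closest to GCLC were PIMREG (0.012), CTDSPL (0.018) and SLC7A5 (0.019). They were the nearest of 19774 other genes, and with 2 groups the measure mainly finds changes of like size.

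The partners and regulators of NRF2 moved both ways: 4 of 14 measured genes rose and 4 fell (57.1% called, against 30.4% of all genes), and their median was -0.05. MAFG and MAFF encode small MAF proteins, the partners NRF2 needs to bind DNA. MAFF had 12.84, 12.92 and 12.99 on mimic arrays and 12.03, 11.91 and 11.97 on control arrays, and MAFG was 1.60-fold higher. Both genes rose on both of their probe sets, MAFF 1.92-fold at the brighter. BACH2, a repressor that also pairs with small MAFs, had means of 9.40 ± 0.18 (SD, n = 3) on mimic and 7.83 ± 0.12 (SD, n = 3) on control arrays, a 2.96-fold rise. BACH1, the repressor of HMOX1, had 0.17 ± 0.08 (SE) and did not pass, but did without mimic replicate 1 (0.23, limma adjusted p = 0.0390). BACH1 also passed after quantile normalization again (0.24), with array weights (0.18) and with its probe sets averaged (0.15). NFE2L1, a relative of NRF2, rose by 0.21, a call lost without mimic replicate 1 or 2 or control replicate 1 or 3 (differences from 0.17 to 0.21, limma adjusted p from 0.0650 to 0.149).

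The genes of the ligase that KEAP1 serves fell. CUL3, its scaffold, had 10.96, 11.13 and 11.24 on mimic arrays and 11.59, 11.60 and 11.55 on control arrays. That is 1.39-fold higher in the control (limma adjusted p = 0.000756), and a second CUL3 probe set fell by 0.45, while the dimmest, with a mean of 4.81, did not pass. RBX1, the ring subunit, was 1.37-fold higher in the control. BTRC, the adaptor of another ligase that recognises NRF2, fell by 0.27 on 1 of 5 probe sets and had -0.03 with all averaged. DPP3, which competes for KEAP1, fell by 0.20, a call lost without any 1 array other than mimic replicate 3 (differences from -0.21 to -0.17, limma adjusted p from 0.0727 to 0.0944). The autophagy receptor gene SQSTM1, whose protein binds KEAP1, had -0.08 and did not pass, and of its other probe sets 1 rose and 1 fell.

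Among 37 other measured genes reported as NRF2 targets, 10 rose and 11 fell (56.8% called, where 30.4% of all genes were), and their median difference was -0.04. SLC7A11, the cystine importer that feeds glutathione synthesis, had 11.26, 11.40 and 11.41 on mimic arrays and 8.65, 8.54 and 8.55 on control arrays. It was 6.84-fold higher, with no overlap. GPX2, a glutathione peroxidase of epithelia, was 1.55-fold higher on 1 of its 2 probe sets. The aldo-keto reductase genes AKR1C1 and AKR1C2 were each 1.52-fold higher, at x_at probe sets that can bind both. The separate levels of these near-identical genes are uncertain. Their relatives AKR1C3 and AKR1B10, also on this list, were lower, with -0.25 and -0.31 (limma adjusted p of 0.0203 and 0.0111). UGDH, which makes UDP-glucuronate, rose 1.38-fold and the carbonyl reductase gene CBR3 1.28-fold.

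The target genes that fell included efflux pumps. ABCC3 had 10.14, 10.42 and 10.38 on mimic arrays and 11.73, 11.69 and 11.68 on control arrays, and fell on all 5 of its probe sets, at this one 2.62-fold. ABCC2 was 1.65-fold higher in the control. The aldehyde dehydrogenase gene ALDH3A1 had means of 8.94 ± 0.11 (SD, n = 3) on mimic and 9.98 ± 0.02 (SD, n = 3) on control arrays, a 2.06-fold fall. The taurine transporter gene SLC6A6 fell by 0.61, but 1 of its 5 probe sets rose, by 0.22. PTGR1, a reductase of reactive alkenals and leukotrienes, fell by 0.50 and the galactosidase gene GLA by 0.42. TXN, which encodes the thioredoxin that TXNRD1 reduces, had 0.08 ± 0.06 (SE), and the ferritin gene FTL 0.05 ± 0.06 (SE), and neither passed.

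**Figure D3:**
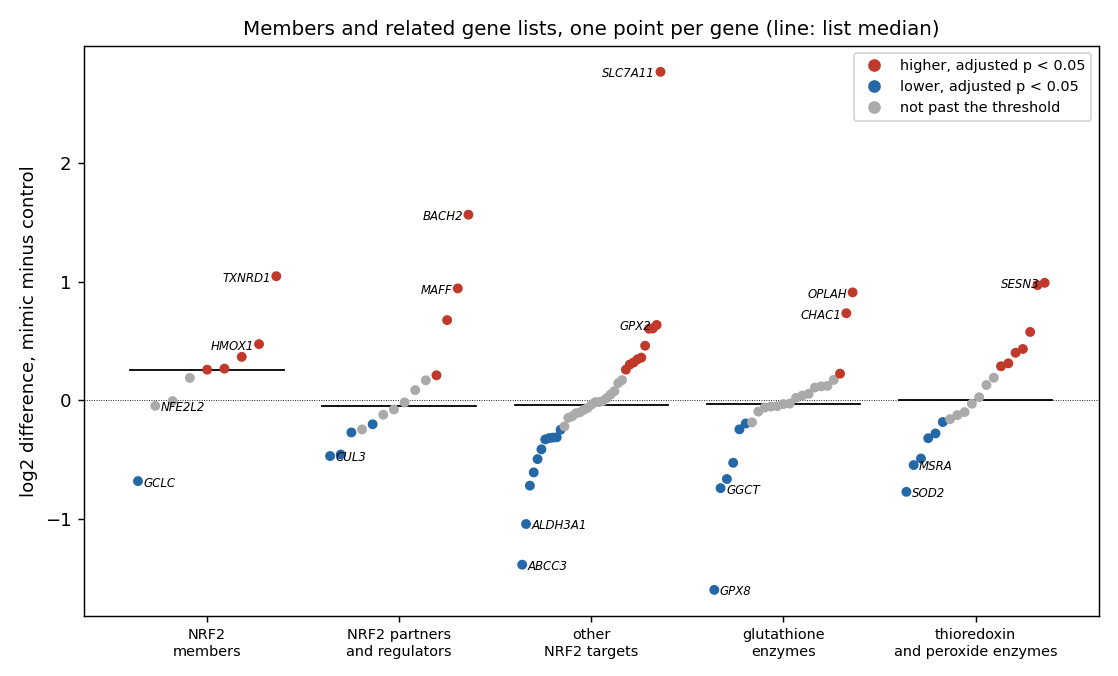
Log2 difference, mimic minus control, for every measured gene of the 9 members and of 4 related lists, sorted within each list, with the list's median as a line. Red, blue and grey mark higher, lower and not past the adjusted threshold. The members' median lies at 0.26, and those of the other 4 lists lie between -0.049 and -0.0027.

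Of 23 other genes of glutathione metabolism, 3 rose and 6 fell, with a median difference of -0.03. That is 39.1% called, near the 30.4% of all genes. CHAC1, which degrades glutathione, rose 1.66-fold and its relative CHAC2 fell by 0.67. OPLAH, the oxoprolinase of the glutathione cycle, rose 1.88-fold, and GGCT, which makes oxoproline, was 1.67-fold higher in the control. GPX8, a peroxidase of the endoplasmic reticulum, had 8.27, 8.22 and 8.15 on mimic arrays and 9.86, 9.91 and 9.68 on control arrays, 3.04-fold higher in the control and lower on both of its probe sets. The mitochondrial glutaredoxin gene GLRX5 fell by 0.53. GSS, glutathione synthetase, which acts after GCLC and GCLM, fell by 0.25 and lost the call without mimic replicate 2 or control replicate 2 (differences of -0.24 and -0.20, limma adjusted p of 0.0641 and 0.0691). GPX4, the peroxidase of membrane lipids, rose by 0.22, a call lost without mimic replicate 2 or control replicate 1 (0.21 and 0.19, limma adjusted p of 0.0895 and 0.104). The glyoxalase gene GLO1 fell by 0.20, a call lost without any 1 array other than mimic replicate 3 (differences from -0.21 to -0.17, limma adjusted p from 0.0516 to 0.116).

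Of 20 measured genes of thioredoxin, peroxide and superoxide handling, 7 rose and 6 fell (65% called, against 30.4% of all genes), and the median was -0.0027. The sestrin genes SESN1, with 11.89, 12.05 and 12.09 against 11.06, 11.03 and 11.03, and SESN3 rose 1.96-fold and 1.99-fold. TXNIP, the inhibitor of thioredoxin, rose on all 3 of its probe sets, by 1.49-fold to 1.73-fold. The catalase gene CAT rose 1.35-fold, the methionine sulfoxide reductase gene MSRB1 1.32-fold and the cytosolic superoxide dismutase gene SOD1 1.24-fold. The mitochondrial superoxide dismutase gene SOD2 had 9.56, 9.59 and 9.99 on mimic arrays and 10.66, 10.27 and 10.55 on control arrays, wide within both groups, and was 1.71-fold higher in the control. MSRA fell by 0.55, on 1 of its 2 probe sets. The peroxiredoxin genes PRDX2, PRDX4 and PRDX3 fell by 0.49, 0.32 and 0.28, PRDX2 on 2 of its 4 probe sets. A dimmer PRDX3 probe set rose by 0.19. With its probe sets averaged, PRDX3 had -0.043 and did not pass (limma adjusted p = 0.560). TXNRD2, the mitochondrial counterpart of TXNRD1, fell by 0.18 on 1 of its 2 probe sets (limma adjusted p = 0.0379). This call was lost without any 1 of the 6 arrays (differences from -0.19 to -0.17, limma adjusted p from 0.0597 to 0.116). With both probe sets averaged, TXNRD2 had -0.045 and did not pass (limma adjusted p = 0.588).

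Across 13 alternative settings of the analysis, GCLC stayed between -0.71 and -0.51 and passed in all of them. TXNRD1 stayed between 0.51 and 1.13, with the lowest value when its dim probe set was averaged in. HMOX1 (0.44 to 0.52), GSR (0.31 to 0.42) and GCLM (0.21 to 0.32) also passed in all 13. NFE2L2 (-0.09 to 0.04) and KEAP1 (-0.06 to 0.06) passed in none of them, with unsettled signs.

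**Figure D4:**
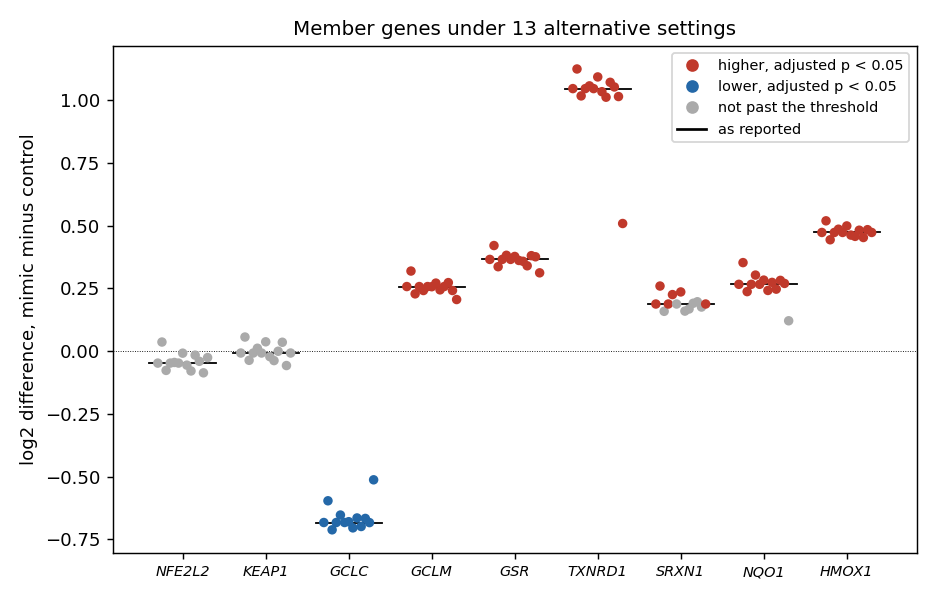
Log2 difference, mimic minus control, of each of the 9 genes under 13 alternative settings (points) and as reported (line). Grey points did not pass the adjusted threshold: all of NFE2L2 and KEAP1, 1 of NQO1 and 7 of SRXN1.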

How the data were processed

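Each of 3 biological replicates per group gave 1 single-colour array, 6 in all. The deposited log2 intensities were made by the authors with RMA, per the submitters' processing notes, with the version and settings not given in the sources used here. Because RMA equalises the arrays, a difference in the cells' total messenger RNA is not visible. Precision is limited by the number of arrays.

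The 62 control probe sets were left out, and the other 54613 entered 1 linear model per probe set, mimic against control, in limma 3.58.1 with standard eBayes (R 4.3.3). Benjamini-Hochberg adjustment ran over the whole table, and calls were made at 0.05. Errors of the differences of single probe sets are moderated standard errors, and intervals are at 95%. The error of the GCLM minus GCLC difference is not moderated and comes from the spread of the 3 arrays in each group. A probe set with several gene symbols named no gene. The fit and the motif search were tested on simulated data. Of 200 probe sets changed among 54613, the fit recovered 97% of those changed by 0.5, and 8.37% of its calls there were false. Most members differed by less than 0.5, and far fewer probe sets were changed there than were called in the data. Neither share therefore carries over to the calls reported.

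The members, the gene lists and the tests were chosen with earlier results of these data known. The lists gave for naming up to 6 genes in each direction with the largest change, and 9 fixed genes. AKR1C3 and AKR1B10 were named besides, as relatives of AKR1C1 and AKR1C2, and were not followed under the alternatives. The likeness search named 3 genes for the member with the largest rise and 3 for the one with the largest fall. Alternatives were stricter thresholds, averaged probe sets, a filter on dim probe sets, 2 scalings, array weights, a robust eBayes with trend, a block for the replicate number, and each array left out. Tables and figures used Python 3.11.15, pandas 2.3.3, numpy 2.4.6 and matplotlib 3.10.9. Gene starts and microRNAs are from RefSeq. Some listed genes and markers, among them MAFK, FTH1, AKR1B1, TXNRD3, PRDX5, KRT17, KRT6A and TP63, were not analysed here.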

Additional observations from a re-analysis of the deposited data

How the results depend on the processing

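The 9 genes gave 117 values under the 13 alternatives at the 0.05 threshold. Of these, 105 had the reported direction and call, and 0 of the called genes reversed. SRXN1 passed without the 40% dimmest probe sets (0.19), after quantile normalization again (0.26), with eBayes trend and robust (0.19), with array weights (0.23), with probe sets averaged (0.19) and in 1 of the leave-outs (0.16 to 0.24). SRXN1 has a single probe set, so averaging and the dim filter left its difference as reported. They changed only the probe sets or genes it was fitted and adjusted with. Under the dim filter, 8 of 13 partners and 20 of 33 other targets passed, where 6140 of 14942 genes did. Of the glutathione and thioredoxin genes, 9 of 22 and 13 of 20 passed under it. NQO1 no longer passed with probe sets averaged (0.12). NFE2L2 turned positive after quantile normalization (0.036), and KEAP1 after quantile normalization (0.056), with array weights (0.012) and in 2 of the 6 leave-outs (all 6 from -0.057 to 0.037). The dim TXNRD1 probe set turned positive in 1 leave-out (leave-outs from -0.071 to 0.012), and the subunit difference was 0.72 with probe sets averaged. The causes of the other changes were not tested. A 1.5-fold minimum, by construction fewer, left 2 of 9 member genes and 3 of 19 member probe sets. It left 8 of 37 other targets, 3 of 14 partners, 5 of 23 glutathione and 3 of 20 thioredoxin genes. In all, 1723 of 19775 genes and 3590 of 54613 probe sets remained. The replicate number as a block left 6 of 9 member genes and 9 of 19 member probe sets called. Over the whole table it left 5812 of 19775 genes and 13372 of 54613 probe sets. The labels do not say whether same-numbered arrays belong together. Their deviations correlated at -0.11, 0.08 and 0.08, and 2 of 6 arrays correlated best with their own number. With 3 arrays per group, these values cannot settle it. NFE2L1, DPP3, GLO1 and TXNRD2 lost their calls under the block. Of 585 values of the other named genes, 544 had the reported direction and call, 37 lost the call and 4, all of BACH1, gained it. Of all genes, 2780 were higher and 3233 lower as reported, 3418 and 3027 after quantile normalization again, 3905 and 3715 with array weights, and 2303 and 3423 after centring on array medians. The shift of all genes stayed under 0.05 on the log2 scale in every setting. Without detection calls, whether dim probe sets lie above background is not known.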
